A study of Homo sapiens and Mus musculus with 4 samples.

Results

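The loci described here are those of 5 genes that encode the core of the transcription machinery at the end of the Hippo pathway: the co-activators YAP1 and WWTR1 (also called TAZ), the DNA-binding factors TEAD1 and TEAD4, and the TEAD cofactor VGLL3. TEAD-bound regions, given as peaks from chromatin immunoprecipitation and sequencing (ChIP-seq), were taken as members when their midpoint lay within 150 kb of the start site of one of these genes. This gave 35 of the 22681 peaks listed for RD and 72 of the 47033 peaks listed for YAP-ERMS. RD is a human cell line of embryonal rhabdomyosarcoma, a childhood tumour with features of developing skeletal muscle. YAP-ERMS are mouse cells from tumours driven by YAP and raised under Myf5-Cre or Pax7-CreER, drivers that are active in muscle progenitors and, on induction, in muscle stem cells. The labels name both drivers for the mouse cells without saying which one gave these libraries. RD TEAD was set against an RD IgG library and YAP-ERMS Tead against a YAP-ERMS input library, with 1 library of each kind. There are therefore no replicates, no difference below has a replicate error, and no test between the cells was made. Neither the labels nor the files say which family members the TEAD antibody recognises or how deeply the libraries were sequenced.

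TEAD proteins bind DNA at the M-CAT sequence through their TEA domain but activate transcription poorly without a partner. YAP1 and WWTR1 are such partners; when the Hippo kinases are active, both are phosphorylated and kept out of the nucleus. The vestigial-like proteins, VGLL3 among them, bind the same surface region of TEAD as YAP1 and WWTR1, so they can compete for it. In skeletal muscle, TEAD factors are known for binding M-CAT elements of contractile genes, and in soft tissue sarcomas amplification of YAP1 and of VGLL3 has been described. Binding at these loci concerns TEAD at the genes of its own family and partners. Peak lists carry no expression values, so neither the levels of the 5 genes nor muscle marker levels of the cells could be read from them.

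Of the 5 genes, 3 had an entry in the RefSeq table of promoter windows, which cover 250 bases before to 50 bases after a start site in GRCh38.p14. YAP1, with a TEAD peak at or beside its start in RD, and VGLL3, with none near its start in RD, are printed for comparison, each 5′ to 3′ on the strand of the gene. Capitals mark GGAATG, the core of the M-CAT element, searched on both strands. The YAP1 window is chr11:102110197-102110496 on the plus strand and the VGLL3 window is chr3:86991100-86991399 on the minus strand.
YAP1: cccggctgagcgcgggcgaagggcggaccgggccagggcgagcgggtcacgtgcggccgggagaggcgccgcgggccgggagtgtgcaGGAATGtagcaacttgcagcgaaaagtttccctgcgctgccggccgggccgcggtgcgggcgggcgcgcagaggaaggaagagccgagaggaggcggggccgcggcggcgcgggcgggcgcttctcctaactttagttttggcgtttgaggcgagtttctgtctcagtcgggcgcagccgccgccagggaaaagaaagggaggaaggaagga
VGLL3: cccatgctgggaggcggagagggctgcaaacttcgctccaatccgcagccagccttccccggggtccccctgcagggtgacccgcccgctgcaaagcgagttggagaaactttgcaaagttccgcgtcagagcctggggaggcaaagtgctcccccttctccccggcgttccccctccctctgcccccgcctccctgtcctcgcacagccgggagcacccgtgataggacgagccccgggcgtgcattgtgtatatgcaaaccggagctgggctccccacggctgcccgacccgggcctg
The YAP1 window held 1 GGAATG, whose first base lay 162 bases before the start, while the VGLL3 window and both WWTR1 windows of the table held none. GGAATG was found in 14.0% of all 35116 promoter windows of the table. TEAD1 and TEAD4, which also had RD peaks at their starts, had no window, and no mouse promoter was searched. A pair of 1 window each cannot show whether the motif goes with a peak. The AP-1 sequence TGANTCA, searched on both strands, was in none of the 4 windows of YAP1, WWTR1 and VGLL3 and in 7.71% of all windows. The E-box CANNTG is a class of sequences that includes sites of myogenic factors of the MyoD family. It occurred 1 time in the YAP1 window, 2 times in 1 of the WWTR1 windows and not in the VGLL3 window. Of all windows, 68.7% held at least 1. The match was CACGTG at YAP1, and the matches at WWTR1 were CATGTG and CAGATG. Whether myogenic factors bind any of them was not tested. None of these matches overlapped another. The WWTR1 window with the E-boxes is chr3:149703224-149703523, and the WWTR1 window without any is chr3:149657976-149658275. Which of these windows goes with the WWTR1 start used for the peaks was not determined. The peaks are placed on hg19 and the start sites used for them are given to 3 decimals of a Mb, so distances are known to about 1 kb and whether the YAP1 motif lies inside the peak cannot be read from these data.

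TEAD peaks lay at or beside the start site of 3 of the 5 genes in RD and of all 5 in YAP-ERMS. In RD these were YAP1, TEAD1 and TEAD4, each with a peak midpoint within 1 kb of the start. WWTR1 and VGLL3 had no RD peak within 5 kb of the start, and the nearest lay 15.7 kb and 125 kb downstream. In YAP-ERMS the nearest peak lay within 1 kb of the start at YAP1, WWTR1, TEAD1, TEAD4 and VGLL3. As a background, 6.34% of all 10 kb stretches held a peak midpoint in RD and 14.9% in YAP-ERMS. That background takes in stretches far from any gene. The share of other promoters with a peak was not computed, because annotations of hg19 and mm9 were not used here.

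**Figure D1:**
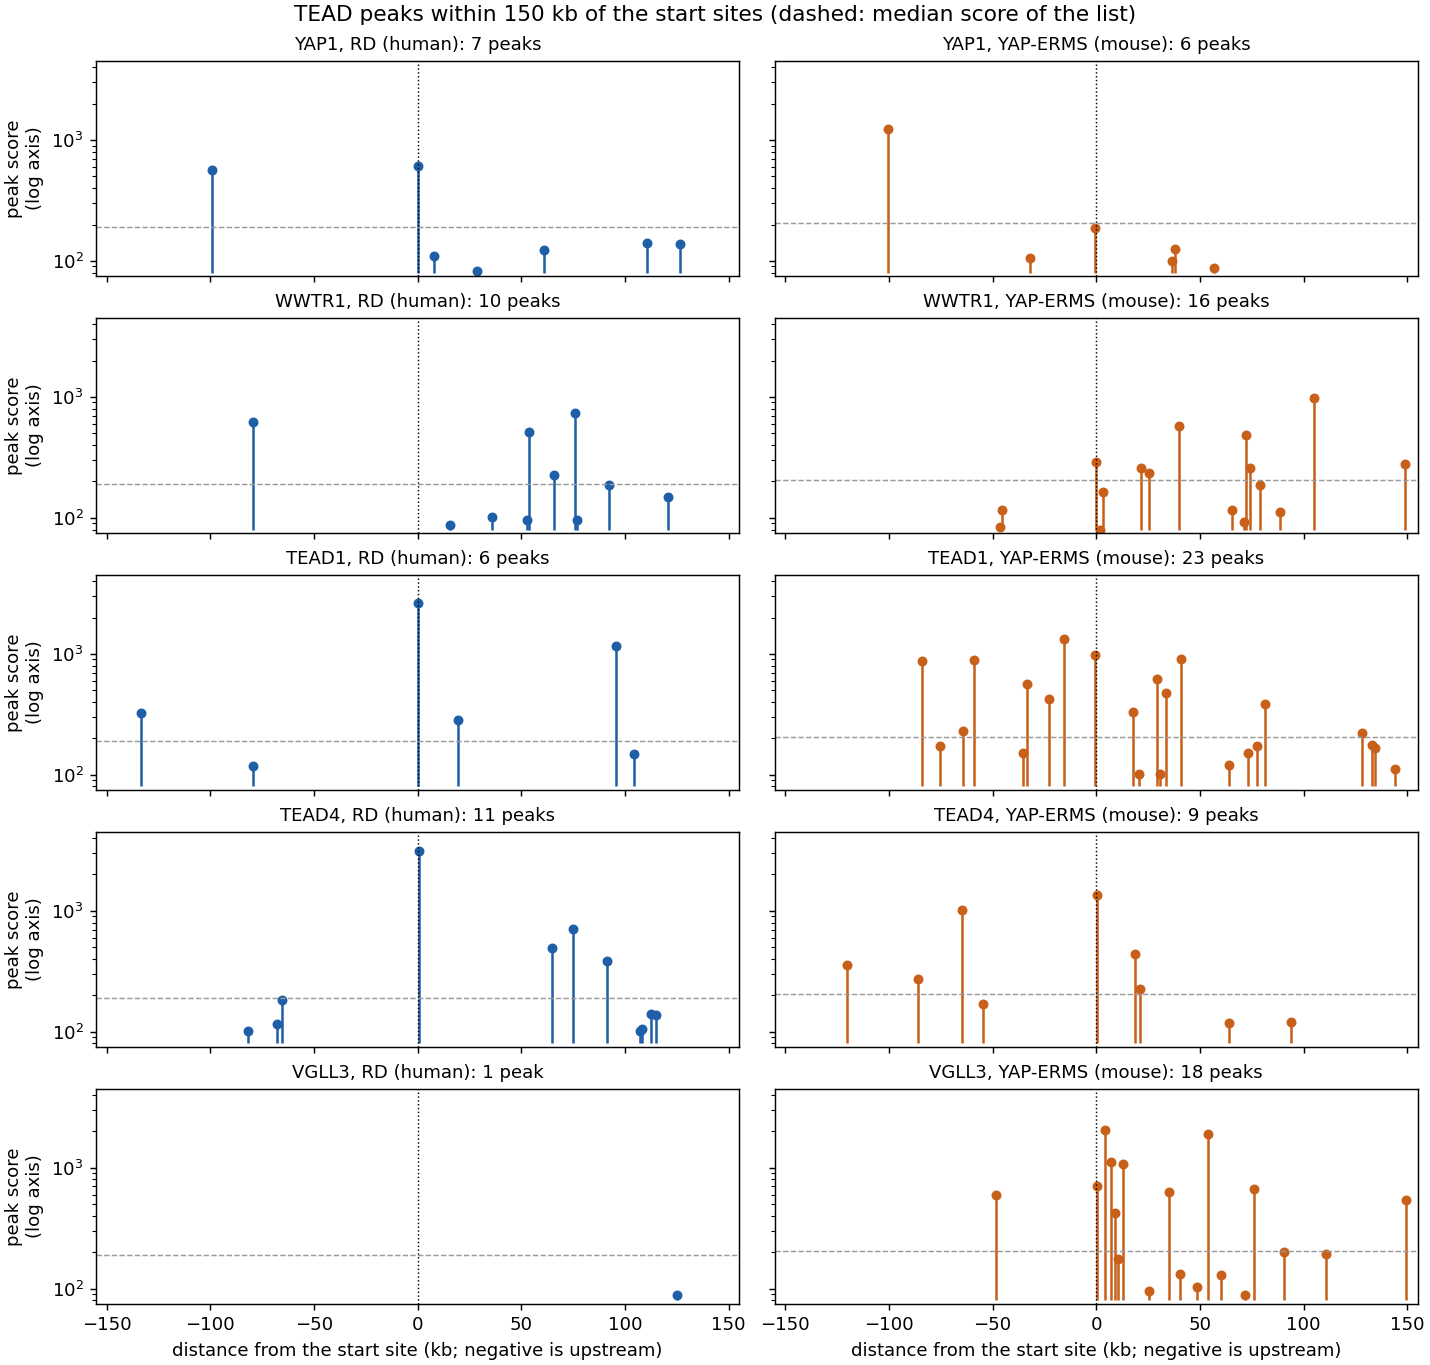
Deposited score (log axis) of every TEAD peak within 150 kb of each start site, by distance from the start in kb, for RD (left) and YAP-ERMS (right); each stem is 1 peak, the dotted line is the start site and the dashed line the median score of that list. RD peaks stand at the starts of YAP1, TEAD1 and TEAD4, YAP-ERMS peaks at all 5 starts, and VGLL3 has 1 peak in RD against 18 in YAP-ERMS.

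The score of a peak, deposited by the authors, is taken to be a p-value written as its negative log10 multiplied by 10, and it depends on depth and control. Scores were therefore ranked only within a list. The percentile of a peak is the share of peaks of its own list that score no higher, with ties averaged.

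YAP1, the co-activator for which the mouse tumours are named, had 7 peaks in RD and 6 in YAP-ERMS. In RD the highest scoring was the peak at the start, on chromosome 11 at 101980697 to 101981200 (hg19), which spanned 304 bp upstream to 200 bp downstream of the start as given. Its score was 614, at percentile 87.1. The second RD peak, 99.0 kb upstream, scored 565 (percentile 85.3), and the other 5 lay downstream of the start with scores of 82.8 to 141, all below the list median of 189. In RD, only the peaks at the start and far upstream of YAP1 thus scored above the list median. In YAP-ERMS the peak at the start, on chromosome 9 at 8004161 to 8005372 (mm9), scored 189 (percentile 46.4), just under that list's median of 205. The highest scoring peak of this locus in YAP-ERMS was 100.5 kb upstream, on chromosome 9 at 8103798 to 8105124, and scored 1244 (percentile 95.1). The other 4 YAP-ERMS peaks scored 87.4 to 125.

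WWTR1, the paralog of YAP1, had 10 peaks in RD and 16 in YAP-ERMS. In RD, 9 of the 10 lay downstream of the start. The nearest, on chromosome 3 at 149359147 to 149359381 (hg19), scored only 87.8 (percentile 7.71). The highest scoring RD peak was 75.7 kb downstream, on chromosome 3 at 149299005 to 149299644, and scored 739 (percentile 90.6). It belonged to a chain of 5 peaks, where neighbours of a chain are no more than 12500 bp apart, that ran over 24.4 kb from 52.7 to 76.9 kb downstream and also held a peak scoring 509. The single upstream RD peak, 79.2 kb from the start, scored 625. Between it and the nearest downstream peak RD had no peak over 94.95 kb, a stretch that holds the start site.

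In YAP-ERMS the WWTR1 start as given was covered by a wide peak of 1761 bp on chromosome 3 at 57379448 to 57381208 (mm9), scoring 287 (percentile 63.1). Peaks at 1.95 kb and 3.29 kb downstream, scoring 80.04 and 162, formed a chain of 3 with it. The first of these is close to the lowest score that the list admits. The highest scoring YAP-ERMS peak of the locus was 105 kb downstream, on chromosome 3 at 57273969 to 57275834, and scored 987 (percentile 92.4). A chain of 6 peaks ran from 65.7 to 88.6 kb downstream, with a highest score of 482. Both cell types thus had their highest scoring WWTR1 peak far downstream of the start, and 13 of the 16 YAP-ERMS peaks were downstream. RefSeq lists 2 promoter windows for human WWTR1 and the start used here is 1 site, so distances hold for that start only.

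TEAD1, which encodes a TEAD factor found in most tissues, had 6 peaks in RD and 23 in YAP-ERMS. The RD peak at its start, on chromosome 11 at 12695667 to 12696350 (hg19), scored 2616 and ranked 41 of 22681. The next RD peak, 95.7 kb downstream on the same chromosome at 12791367 to 12791980, scored 1162 (percentile 96.1). The other 4 RD peaks scored 119 to 325, and from 79.2 kb upstream to the start RD had none. In YAP-ERMS the peaks spread over both sides, 9 upstream and 14 downstream. The peak at the start, on chromosome 7 at 119821479 to 119823449 (mm9), scored 978 (percentile 92.3). The highest scoring lay 15.6 kb upstream, at 119806257 to 119808467, and scored 1335 (percentile 95.9). Further YAP-ERMS peaks of the top 10% lay 84.0 and 59.0 kb upstream, with scores of 869 and 891, and 40.8 kb downstream, with a score of 905. All YAP-ERMS peaks here except the one at the start stood in 5 chains of 4 to 6 peaks.

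TEAD4, whose product is a TEAD factor of developing muscle, had 11 peaks in RD and 9 in YAP-ERMS. Its RD peak at the start, on chromosome 12 at 3068167 to 3068971 (hg19), scored exactly 3100 over a width of 805 bp. It shared that value with the other peaks of a set of 12, and 3 RD peaks scored higher, so it ranked 4 of 22681 with ties. In YAP-ERMS the peak at the start, on chromosome 6 at 128249754 to 128251101 (mm9), scored 1350 (percentile 96.0), the highest of the locus in that list too. TEAD4 was the only locus of the 5 where the peak nearest the start was the highest scoring in both lists. The second scores were 707 in RD, 74.8 kb downstream, and 1018 in YAP-ERMS, 64.7 kb upstream. The RD window ended in a chain of 4 peaks from 107 to 115 kb downstream, all scoring 101 to 140. In the human gene order TSPAN9 follows TEAD4, so peaks this far from the start need not belong to TEAD4.

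VGLL3 had 1 peak in RD and 18 in YAP-ERMS. The RD peak, on chromosome 3 at 86914719 to 86914894 (hg19), lay 125 kb downstream of the start, was 176 bp wide and scored 88.8 (percentile 8.56). Upstream, the nearest RD peak was 2035 kb away. The peak-free stretch around the VGLL3 start was thus 2159.7 kb long. Of the 22607 gaps between neighbouring RD peaks on numbered chromosomes and X, centromeres included, 115, or 0.509%, were at least as long. Each gap counts once here, whatever its length. A given site falls more often in a long gap, so the share of sites in gaps this long is larger. That share was not computed. The cause was not tested.

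In YAP-ERMS, by contrast, 14 of the 18 VGLL3 peaks formed 1 chain that began at the start and ran over 78.0 kb, on chromosome 16 from 65813704 to 65891684 (mm9). The peak at the start, at 65813704 to 65817263, was 3560 bp wide and scored 707 (percentile 87.1). The highest scoring peak was the next one, 4.20 kb downstream at 65818057 to 65820353, which scored 2048 and rank 615 of 47033. A peak 54.1 kb downstream scored 1919 (percentile 98.4), and those at 6.89 and 12.8 kb scored 1106 and 1082. A single VGLL3 peak was upstream, 48.5 kb from the start, with a score of 595. VGLL3 thus had 4 peaks in the top 10% of the YAP-ERMS list, second to TEAD1 with 5.

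The number of peaks at a locus was set beside the numbers in all 300 kb stretches of the same list, the same length as a locus window. A 300 kb stretch held at least 1 peak in 59.6% of cases in RD and in 77.3% in YAP-ERMS, with medians of 1 and 4 peaks. In RD, as many peaks as TEAD4 (11) were held by 3.23% of stretches, as many as WWTR1 (10) by 4.25%, as many as YAP1 (7) by 10.1% and as many as TEAD1 (6) by 13.4%. The single VGLL3 peak stood at the median of RD stretches. In YAP-ERMS the order was another: TEAD1 (23) was matched by 0.973% of stretches, VGLL3 (18) by 3.91%, WWTR1 (16) by 6.27%, TEAD4 (9) by 25.7% and YAP1 (6) by 40.9%. Against stretches of its own chromosome only, the RD order changed: WWTR1 was matched by 1.98%, TEAD4 by 5.87%, YAP1 by 9.66%, TEAD1 by 13.5% and VGLL3 by 55.6%. In YAP-ERMS the own-chromosome shares were 0.402% for TEAD1, 6.96% for VGLL3, 7.20% for WWTR1, 25.9% for TEAD4 and 45.5% for YAP1. These are descriptions of where the loci fall, since many stretches hold no gene and the loci were picked as gene loci.

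**Figure D2:**
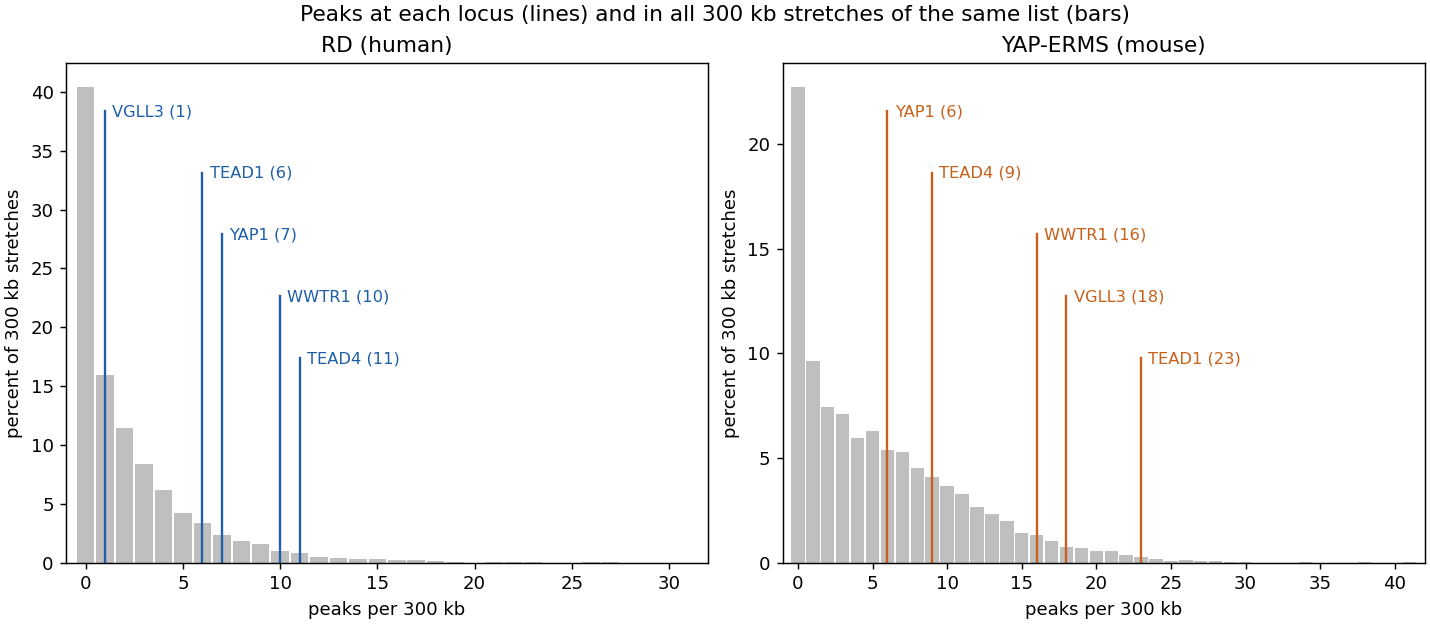
Number of peaks within 150 kb of each start site (coloured lines, number in brackets) and the percent of all 300 kb stretches of the same list with each number of peaks (grey bars), for RD (left) and YAP-ERMS (right). TEAD4 and WWTR1 lie farthest right in RD, and TEAD1 and VGLL3 in YAP-ERMS.

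By score, the peaks at the 5 loci were spread over the whole range of each list. In RD, 4 of 35 were in the top 10% of the list, or 11.4% (Wilson 95% interval 4.54% to 26.0%), against 10.0% of all RD peaks, and the median percentile was 38.0. In YAP-ERMS, 13 of 72 were in the top 10%, or 18.1% (10.9% to 28.5%), against 10.0% of all YAP-ERMS peaks, with a median percentile of 54.7. The RD share is near its background. The intervals cover counting error only and are too narrow where neighbouring peaks are not independent. In YAP-ERMS, 27 of the 72 peaks stood in chains of at least 5 peaks, so no difference from 10.0% is read from that interval. The top 10% peaks of RD were 2 at TEAD1, 1 at TEAD4 and 1 at WWTR1, and those of YAP-ERMS were 5 at TEAD1, 4 at VGLL3, 2 at TEAD4 and 1 each at YAP1 and WWTR1. Among loci, the median percentile was highest at TEAD1 in RD (68.2) and at VGLL3 in YAP-ERMS (78.4). YAP1 had the lowest median in YAP-ERMS (22.1) and, after VGLL3 with its single peak, in RD (34.7).

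**Figure D3:**
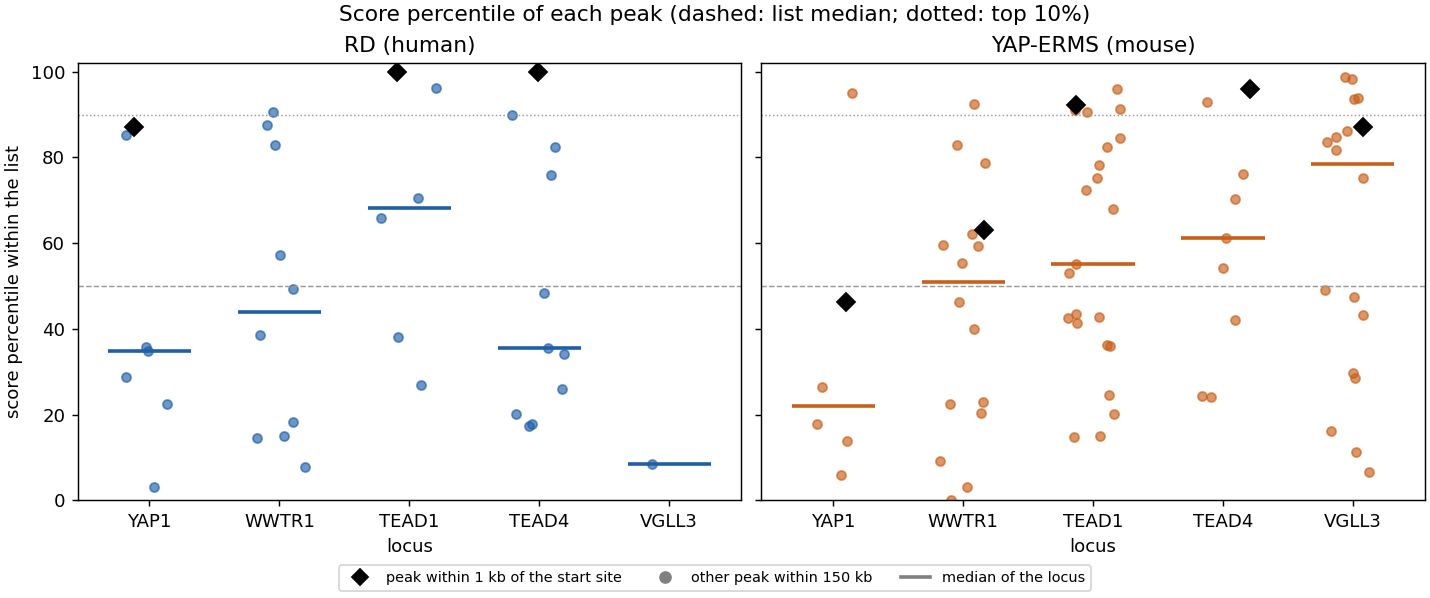
Score percentile within the list of each peak at the 5 loci, for RD (left) and YAP-ERMS (right); diamonds are peaks within 1 kb of the start site, dots the other peaks, bars the median of a locus, and the dashed and dotted lines the list median and the top 10%. The diamonds of TEAD1 and TEAD4 stand above the top 10% line in both lists, while that of YAP1 stands below the median in YAP-ERMS.

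Score percentiles were also set beside the distance from the start. The same values at other genes were not computed, so none of them can be called particular to these loci. In RD the median percentile was 99.8 for the 3 peaks within 1 kb of a start, 22.4 for the 1 peak between 1 and 10 kb, 13.0 for the 4 between 10 and 50 kb, 57.2 for the 17 between 50 and 100 kb and 35.1 for the 10 beyond. In YAP-ERMS it was 87.1 for the 5 peaks within 1 kb, 75.1 for the 5 between 1 and 10 kb, 55.4 for the 27 between 10 and 50 kb, 42.8 for the 25 between 50 and 100 kb and 57.6 for the 10 beyond. The 5 YAP-ERMS peaks within 1 kb ranged from percentile 46.4 at YAP1, below the median of all members in that list, to 96.0 at TEAD4. By count, the largest class was 50 to 100 kb in RD, with 17 of 35 peaks, most of them at WWTR1 and TEAD4. In YAP-ERMS it was 10 to 50 kb, with 27 of 72. The classes differ in length, and per Mb both lists were densest within 1 kb. There RD had 300 peaks per Mb and YAP-ERMS 500, from 3 and 5 peaks. From 10 to 50 kb the densities were 10 in RD and 67.5 in YAP-ERMS, and from 50 to 100 kb 34 and 50. In both lists more peaks were downstream than upstream of the starts, 27 against 8 in RD and 52 against 20 in YAP-ERMS. The YAP-ERMS difference lay mainly at VGLL3 (17 against 1) and WWTR1 (13 against 3). TEAD1 had 14 against 9, TEAD4 5 against 4 and YAP1 3 against 3 in that list. In RD each locus had more peaks downstream, with the largest difference at WWTR1 (9 against 1). The downstream side holds the gene bodies; how many of these peaks lie in introns was not analysed here.

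Chains of at least 5 peaks held 5 of the 35 RD peaks, all at WWTR1, which is 14.3% against 9.38% of all RD peaks. In YAP-ERMS they held 27 of 72, or 37.5%, against 17.6% of all YAP-ERMS peaks. Of these, 15 were at VGLL3, 6 at TEAD1 and 6 at WWTR1, and none at YAP1 or TEAD4. One of the 15 VGLL3 peaks belonged to a separate chain of 6 that began at the far edge of the window and ran beyond it.

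The width of the members followed their score much as in the whole lists. At matched score, that is against the median log2 width of peaks in the same of 50 score bins, the median of the members was -0.06 log2 units in RD and 0.05 in YAP-ERMS. Of the RD peaks 15 of 35, and of the YAP-ERMS peaks 41 of 72, were wider than the median at their score. Over 2-fold wider were 3 members, all in YAP-ERMS: the VGLL3 peak at the start (1.37 log2 units), the VGLL3 peak 111 kb downstream (1.34) and the TEAD4 peak 64.7 kb upstream (1.05). The share of all peaks of the list that are over 2-fold wider was not computed, so this count has no background. Peak widths of the 2 lists are not compared, because control and possibly fragment length and depth differed.

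**Figure D4:**
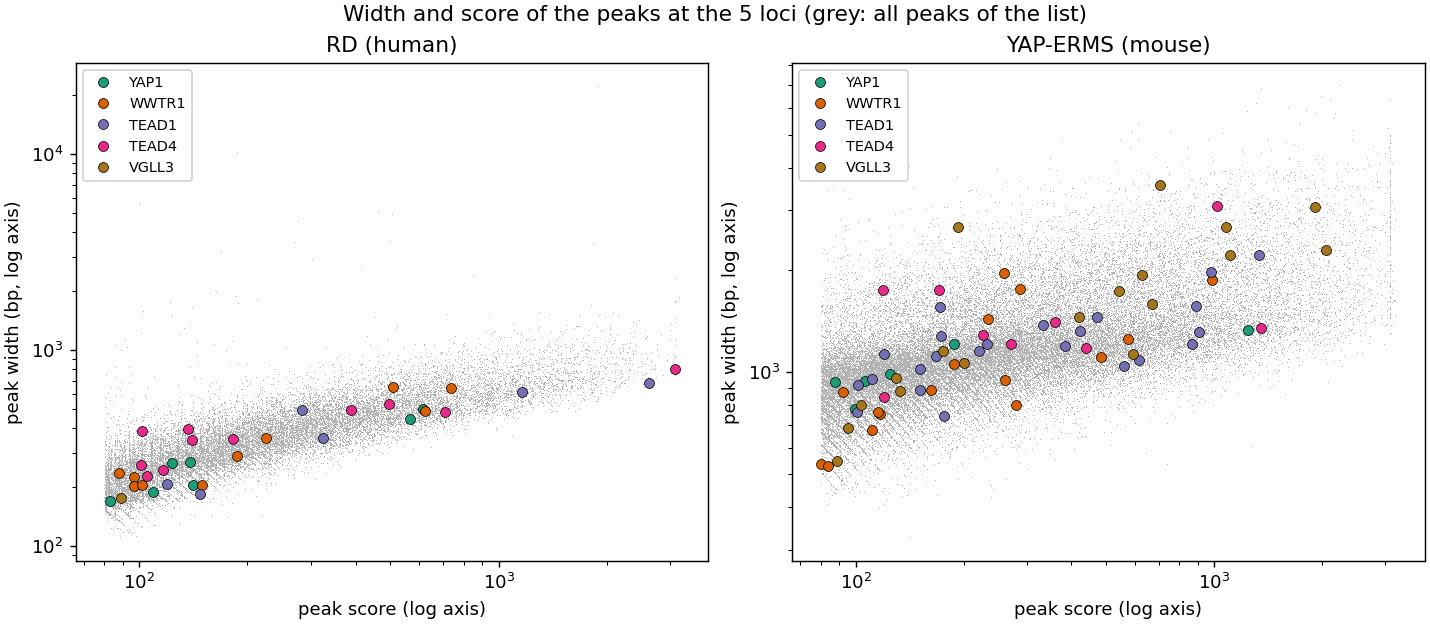
Peak width in bp against score (both log axes) for RD (left) and YAP-ERMS (right), with all peaks of the list in grey and the members coloured by locus. The RD members lie inside the grey band, and the 3 widest VGLL3 and TEAD4 peaks for their score lie toward the upper edge of the grey points in YAP-ERMS.

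At the edge of the windows, the outermost RD member was a TEAD1 peak 133 kb upstream with a score of 325, and the nearest RD peak left out was 156 kb downstream of WWTR1 with a score of 85.6. In YAP-ERMS the outermost member was a VGLL3 peak 149 kb downstream with a score of 545, and the nearest left out was 153 kb upstream of YAP1 with a score of 182. In the human gene order, the protein-coding neighbours are CFAP300 and BIRC3 at YAP1, TM4SF4 and COMMD2 at WWTR1, PARVA and RASSF10 at TEAD1, TULP3 and TSPAN9 at TEAD4, and CADM2 and CHMP2B at VGLL3. Membership rests on distance to a start site alone and does not assign a peak to a gene.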

How the data were processed

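TEAD ChIP-seq was analysed in RD and YAP-ERMS cells, with 1 TEAD and 1 control library each. Alignment used Bowtie2 and the builds hg19 and mm9, per the submitters' processing notes. The authors deposited 1 peak list per cell type with a score per peak; peak names are those of MACS, and list names state a p limit of 1e-08 and the control (IgG or input). Versions, read filters and duplicate handling are not stated in the labels or lists.

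Start sites were taken as given for the loci, to 3 decimals of a Mb, and signed by the known gene strand, which RefSeq gave for 3 human genes. From the deposited intervals, midpoints, distances, within-list ranks, chains (gaps up to 12500 bp), width at matched score (50 bins) and counts in all whole 300 kb and 10 kb stretches between the first and last peak of each numbered chromosome and X were derived with scipy 1.17.1, pandas 2.3.3 and numpy 2.4.6 under Python 3.11.15, checked on simulated data. Positions are 1-based. Intervals are Wilson 95% intervals. No tests were possible without replicates. All 5 members are named; at each locus the text gives the nearest and the highest scoring peak. The members, lists and measures were chosen with earlier results of these data known. Promoter windows and gene order come from RefSeq (GRCh38.p14). The other Hippo pathway genes, and genes with a similar pattern of peaks, were not analysed here, as annotations of hg19 and mm9 were not used. The alternatives varied the window, score limit, joining of peaks, start site, chain gap, score bins and stretches.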

Additional observations from a re-analysis of the deposited data

How the results depend on the processing

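Of 44 alternative values of the main results, 34 stayed within 1.5 times the value given or within its interval. The start-site result was among them: 3 loci in RD under every alternative, and 5 in YAP-ERMS, or 4 above the median score, where YAP1 dropped out. Shifts of the start sites by 1 kb were added after seeing the data. The number of RD peaks was 16 at scores of 160 or more and 14 above the list median, against 35; the YAP-ERMS number was 38 above the list median, against 72. The top 25% of scores held 31.4% of the RD and 36.1% of the YAP-ERMS peaks at the 5 loci, against about 25% of each whole list by construction. The top 5% held 6.94% of the YAP-ERMS peaks at the 5 loci, against about 5% of that list. Peaks in chains numbered 0 in RD and 11 in YAP-ERMS with gaps of 5 kb, and 15 and 49 with gaps of 25 kb. Of 80 alternative values for single loci (peak numbers and shares of 300 kb stretches), 25 fell outside the limits set for them. Above the list median score, YAP1 had 2 peaks in RD against 7 and 1 in YAP-ERMS against 6. WWTR1 had 4 in RD against 10. VGLL3 in RD had 0 peaks within 100 kb and 2 within 200 kb. TEAD4 had 7 RD peaks within 100 kb and 14 YAP-ERMS peaks within 200 kb.

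No paired analysis was possible because each group holds 1 library and no result comes from a test. Leaving out a replicate was not possible for the same reason. Peak numbers depend on sequencing depth, which is unknown here, so an absent peak means only that none passed the authors' limit.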

Other observations

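Some pairs of peaks lay at like distances from the start in both species. They were picked after their values were seen, and whether the sequences align between the genomes was not analysed here. At YAP1, a peak with score percentile 85.3 lay 99.0 kb upstream in RD. In YAP-ERMS a peak with percentile 95.1 lay 100.5 kb upstream of YAP1. Neither had another peak of its list within 50 kb. At WWTR1, the RD peak of score 739 lay 75.7 kb downstream, and YAP-ERMS had peaks 74.0 and 72.4 kb downstream with scores of 259 and 482. Pairs closer in distance, away from the starts, included 1 at TEAD4, 65.6 kb upstream in RD and 64.7 kb upstream in YAP-ERMS. Another was at WWTR1, 65.9 kb downstream in RD and 65.7 kb downstream in YAP-ERMS. How many such pairs the number of peaks alone would give was not computed. All these distances are known to about 1 kb only.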
